A study of Mus musculus with 24 samples.

Results

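CB RNA of mouse testis germ cells was compared between animals homozygous and heterozygous for a knock-in allele of Ddx4. The comparison used 6 of the series' 24 libraries, chosen by their titles: 3 of homozygous CB RNA and 3 of heterozygous CB RNA. For context, 4 round spermatid RNA libraries of the same genotypes were used, 2 homozygous and 2 heterozygous. The labels name the genotypes DDX4 homozygous knock-in and DDX4 heterozygous knock-in, so both groups carried the inserted allele; CB RNA of unmodified animals was not analysed here. The abbreviation CB is left unexplained by the labels, and the cell type is stated as germ cells without a stage, obtained from testes by 2 steps of enzymatic digestion. CB libraries were made from 25 ng of RNA with a strand-specific kit, without selecting polyadenylated RNA or removing ribosomal RNA, whereas 1 ug of RNA and another kit served for round spermatids. Nothing in the labels ties the numbered libraries to different animals, and p-values here measure only how far these samples spread, a spread that may be technical.

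Ddx4 encodes a DEAD-box RNA helicase, the mouse homologue of Drosophila Vasa, and marks the germ line. Its protein is a core component of germ granules, membraneless bodies of RNA and protein that in male germ cells include intermitochondrial cement and the chromatoid body. These bodies hold PIWI proteins, Tudor-domain proteins, piRNA precursors and proteins of RNA decay and small RNA silencing. Spermatids store many messages for days before translating them, the protamine messages being the best known.

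Rounded gene counts summed to 16.5, 15.6 and 16.4 M in the homozygous CB libraries and to 14.7, 14.2 and 14.2 M in the heterozygous ones. All 7 genes chosen to define germ cells were present in every library. Among them Dazl, an RNA-binding protein of the germ line, was at 69.6, 72.3 and 68.4 TPM in homozygous CB RNA and at 33.1, 90.7 and 87.0 TPM in heterozygous CB RNA. Heterozygous library 1 stood apart from the other heterozygous libraries, with a chi-square over degrees of freedom of 28.6 and 28.5 to them, against 5.27 between those and 2.76 to 9.09 between homozygous libraries. Levels are CPM, counts scaled by TMM factors to a common library size, changes are log2 of homozygous over heterozygous CB RNA, and a gene was called at an adjusted p under 0.05 in edgeR's quasi-likelihood test.

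Of 19335 genes tested, 332 were called (1.72%), with 224 higher (1.16%) and 108 lower (0.559%) in homozygous CB RNA. DESeq2 called 565. The groups were separated in CPM for each of the 332 called genes, as they were for 4107 genes in all (21.2%). Changes were mostly modest, with 73 of the higher and 35 of the lower genes past 2-fold. Leaving out heterozygous library 1 gave 2213 calls, 1420 higher (7.09%) and 793 lower (3.96%). These shares are the background for all counts given below without that library. Leaving out any other library left 51 to 130 calls, and each of the 332 genes kept its sign every time. In all, 40 genes, 35 higher and 5 lower, were called without each library in turn.

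Ddx4 itself did not pass the test. Its level was 302.9, 306.4 and 243.9 CPM in homozygous CB RNA and 277.5, 312.0 and 364.8 CPM in heterozygous CB RNA, so the groups overlapped. The log2 change was -0.16 ± 0.13 (SE, n = 3 each, adjusted p = 0.649). Both genotypes carry the knock-in allele and gene counts do not tell it from the unmodified one, so the level of Ddx4 does not check the genotype labels. In round spermatids the estimate for Ddx4 was -1.77, and the difference between the effects, 1.59 ± 0.18 (SE, n = 3 and 2 libraries a group), was called at adjusted p = 0.00140.

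Among the 15 largest rises, those of Evpl, Slc41a1, Sel1l3, Kif26b and Scn4a were called without each library in turn. Evpl, which encodes envoplakin of the cornified envelope of epithelia, had 54.5, 54.4 and 58.6 CPM in homozygous CB RNA and 11.4, 12.5 and 11.1 CPM in heterozygous CB RNA, a log2 change of 2.26 ± 0.11 (SE, adjusted p = 2.5e-05). Slc41a1, a magnesium transporter, had 97.0, 93.8 and 98.0 CPM in homozygous CB RNA and 28.2, 31.6 and 29.0 CPM in heterozygous CB RNA, a change of 1.70 ± 0.10 (adjusted p = 7.3e-05). For both genes every homozygous library lay above every heterozygous one by a margin far larger than the spread within either group. Sel1l3 had 10.7, 8.51 and 9.90 CPM in homozygous CB RNA against 1.00, 2.30 and 1.19 CPM in heterozygous CB RNA (2.69 ± 0.27, adjusted p = 0.00191). Kif26b, a kinesin-family gene, had 15.9, 17.3 and 20.7 CPM in homozygous CB RNA and 4.94, 3.55 and 3.92 CPM in heterozygous CB RNA (2.12 ± 0.18, adjusted p = 0.00146). Scn4a, the sodium channel of skeletal muscle, averaged 5.82 ± 0.53 CPM in homozygous and 1.15 ± 0.11 CPM in heterozygous CB RNA (SD, n = 3 each), a change of 2.33.

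The other 10 of the 15 largest rises included genes at a few CPM or less, each with a call that was lost without at least 1 library. Igha, the constant region of the IgA heavy chain, had 1.40, 1.32 and 1.88 CPM in homozygous CB RNA and 0, 0.0696 and 0.280 CPM in heterozygous CB RNA, so its change of 3.62 rests on few counts. ENSMUSG00000118459 (2.51), Plpp2 (1.91), Asprv1 (1.91), Psd4 (1.88), Gsdmd (1.60) and Cd74 (1.59) were also called, as were the pseudogenes Kat6b-ps1 (1.79) and Gm5925 (1.78), whose reads may be shared with their parent genes. Gsdmd encodes the pore-forming gasdermin D and Cd74 the invariant chain of MHC class II. Tex101, a surface protein of germ cells, had 92.8, 83.4 and 100.6 CPM in homozygous CB RNA against 16.7, 38.6 and 32.7 CPM in heterozygous CB RNA (1.65 ± 0.24, adjusted p = 0.00930).

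Several abundant genes outside the largest changes also rose with tight replicates, and those of this paragraph were picked out after their values were seen. Brca2, which repairs DNA by homologous recombination, had 587.8, 605.7 and 492.2 CPM in homozygous CB RNA and 271.0, 227.7 and 282.3 CPM in heterozygous CB RNA, a change of 1.11 ± 0.13 (adjusted p = 0.00286). Mki67, the proliferation antigen Ki-67, had 324.0, 316.6 and 339.2 CPM in homozygous CB RNA against 194.3, 196.0 and 201.1 CPM in heterozygous CB RNA (0.73 ± 0.09, adjusted p = 0.00551). Each homozygous library lay above each heterozygous one for both messages. Egr1, an immediate-early transcription factor, had 32.2, 30.3 and 37.7 CPM in homozygous CB RNA and 14.97, 17.1 and 15.1 CPM in heterozygous CB RNA (1.09 ± 0.13, adjusted p = 0.00326). Nr4a3, an orphan nuclear receptor that is also an immediate-early gene, had 10.7, 10.7 and 11.97 CPM in homozygous CB RNA against 5.02, 5.08 and 4.34 CPM in heterozygous CB RNA (1.21 ± 0.15, adjusted p = 0.00526). Neither group overlapped the other for these genes. This adds no support, since the groups were separated for all 332 called genes and for 21.2% of genes tested. All of these genes but Mki67 were called without each library in turn. Golga2, a structural protein of the Golgi, rose by 0.92 ± 0.11 to 187.4 ± 10.2 CPM in homozygous CB RNA, against 99.1 ± 9.45 CPM in heterozygous CB RNA (SD, n = 3 each). Lrrc61 (1.22), BC049730 (1.26), Iqgap2 (1.14) and Ncoa7 (1.19) were likewise called without each library in turn.

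Most of the 15 largest falls were in genes at no more than 7.14 CPM on average in heterozygous CB RNA; mt-Nd2 was the most abundant of them and is described with the mitochondrial genes. Gm20521 had 0 counts in the homozygous libraries and 48 in the heterozygous ones, at least 18.3-fold lower when the floor of 3 counts is taken over the homozygous group. Chst2, a carbohydrate sulfotransferase, had 0.364, 0.252 and 0.425 CPM in homozygous CB RNA and 1.79, 1.95 and 1.82 CPM in heterozygous CB RNA (-2.39 ± 0.35, adjusted p = 0.00995). Gm614, on the X chromosome, had 2.31, 2.14 and 2.49 CPM in homozygous CB RNA against 4.80, 7.31 and 7.08 CPM in heterozygous CB RNA (-1.46 ± 0.22, adjusted p = 0.0107). The predicted or clone-named genes Gm30015 (-2.87), Gm47542 (-2.38), Gm10222 (-1.53), Gm47645 (-1.53), Gm9445 (-1.49), AC116597.1 (-1.39), AC165264.1 (-1.37), Gm15517 (-1.30) and Gm43534 (-1.29) were called, as was Cntnap5c (-1.52). Gm10222 and Gm9445 are annotated as pseudogenes and may share reads with other loci. Every call of the 15 largest falls was lost without at least 1 library. Ubqlnl, a ubiquilin-like gene named after its values were seen, had 83.2, 84.8 and 87.5 CPM in homozygous CB RNA and 154.7, 158.8 and 156.5 CPM in heterozygous CB RNA. Its change of -0.88 ± 0.09 (adjusted p = 0.00191) was called without each library in turn.

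**Figure D1:**
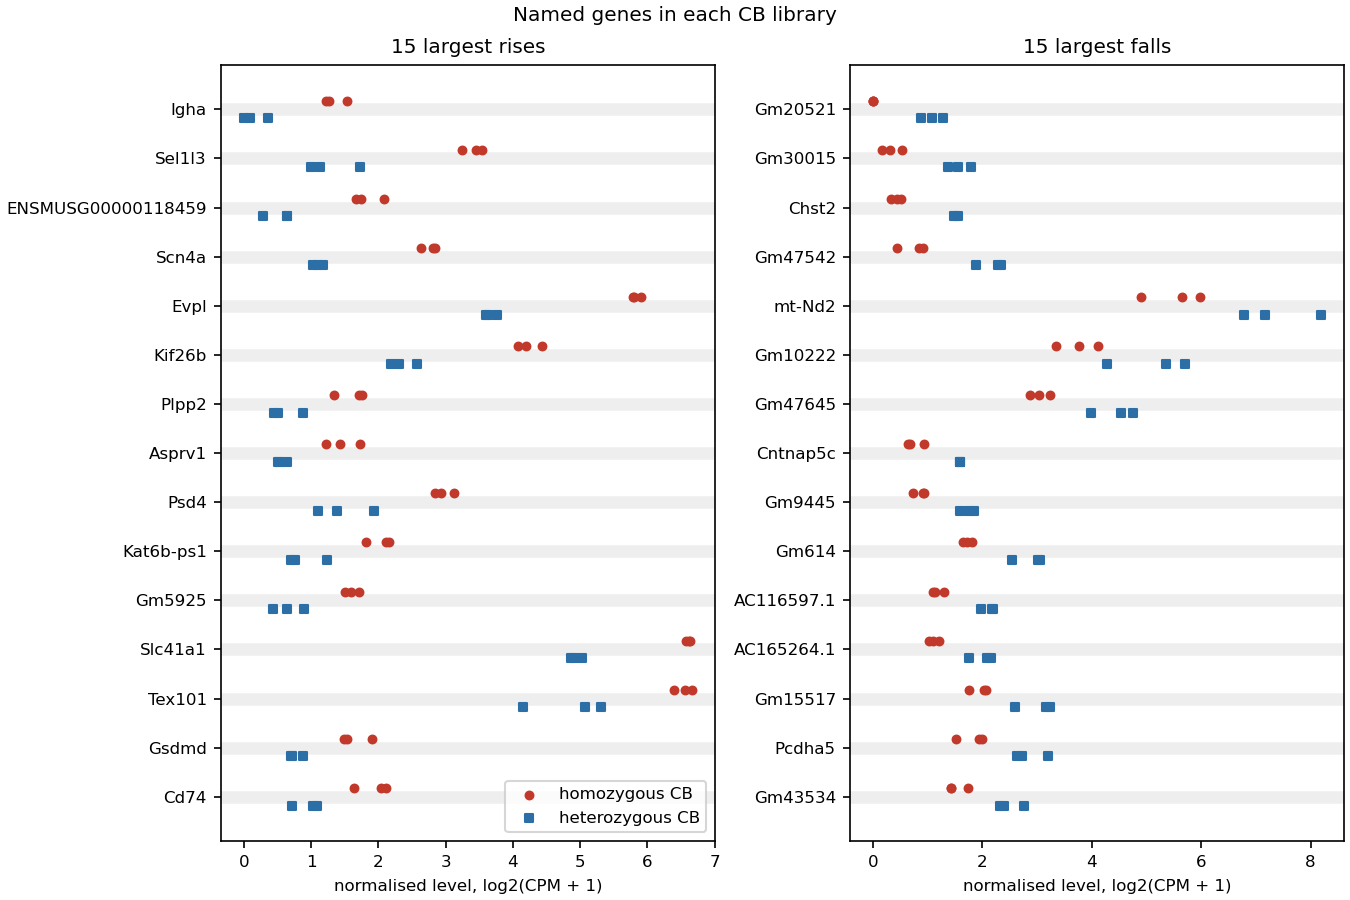
Normalised level, as log2(CPM + 1), of the 15 genes with the largest called rises (left panel) and the 15 with the largest called falls (right panel) in each CB library; red circles are the 3 homozygous and blue squares the 3 heterozygous libraries. Only genes with separated groups were chosen, so the circles and squares are separated in every row. Evpl and Slc41a1 sit far to the right among the rises with little spread, whereas many of the falls lie at a few CPM.

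The make-up of the libraries differed as well. CT010467.1, a clone-named gene to which no function is given here, was the largest single item, at 6.52%, 6.67% and 6.88% of gene counts in homozygous CB RNA and 11.3%, 13.95% and 13.7% in heterozygous CB RNA. In homozygous CB RNA its level was 0.506 of the heterozygous one (log2 change -0.98 ± 0.20, adjusted p = 0.0398). Its per-library percents were fully separated, which in 3 against 3 gives the smallest p the two-sided exact permutation test allows, 0.1. Lars2, the mitochondrial leucyl-tRNA synthetase, moved with it, at 0.528%, 0.549% and 0.554% of counts in homozygous CB RNA against 0.745%, 1.16% and 1.11% in heterozygous CB RNA (log2 change -0.91 ± 0.17, adjusted p = 0.0277). In both cases heterozygous library 1 was the heterozygous one nearest to the homozygous libraries. The calls of both genes were lost without at least 1 library, and the source of their reads was not tested. Without CT010467.1 in the library sizes, a setting chosen after the data were seen, 337 genes were called and 319 of the 332 remained. RefSeq protein-coding genes took 88.7% ± 0.15 of counts in homozygous CB RNA and 82.3% ± 1.20 in heterozygous CB RNA (SD, n = 3 each). That difference of 6.36 points was close in size to the -6.29 points of CT010467.1, which is not among them. Shares of a whole are not independent.

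Mitochondrially encoded RNA took a smaller share of counts in homozygous CB RNA, with 3 of 15 genes tested lower and none higher, against 0.559% lower over all genes. It accounted for 0.304%, 0.342% and 0.191% of counts in homozygous CB RNA and 0.610%, 0.354% and 0.527% in heterozygous CB RNA, where library 2 came close to the homozygous range. As a share of TPM the groups overlapped, at 0.445% to 0.813% in homozygous and 0.782% to 1.27% in heterozygous CB RNA (two-sided exact permutation p = 0.2). Of the mitochondrial ribosomal RNAs, mt-Rnr1 had 380.5, 444.7 and 273.1 CPM in homozygous CB RNA against 996.1, 631.0 and 986.6 CPM in heterozygous CB RNA (-1.25 ± 0.21, adjusted p = 0.0164). mt-Nd2, a subunit of respiratory complex I, had 49.1, 61.8 and 29.0 CPM in homozygous CB RNA and 292.3, 108.6 and 142.2 CPM in heterozygous CB RNA (-1.96 ± 0.36, adjusted p = 0.0241). mt-Co1, which codes for the catalytic subunit of cytochrome oxidase, overlapped between groups, at 1049, 1042 and 694.8 CPM in homozygous CB RNA and 1314, 712.3 and 946.4 CPM in heterozygous CB RNA, with an estimate of -0.09 that did not pass the test. The median over the 15 genes was -1.10, against -0.005 over all genes tested. Without 1 library the number lower was 0 to 5. Nuclear genes of the respiratory chain had a median of 0.002 over 78 genes, with none called by edgeR (5 at an unadjusted p under 0.05, 0 by DESeq2, and 1 higher and 3 lower without heterozygous library 1).

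**Figure D2:**
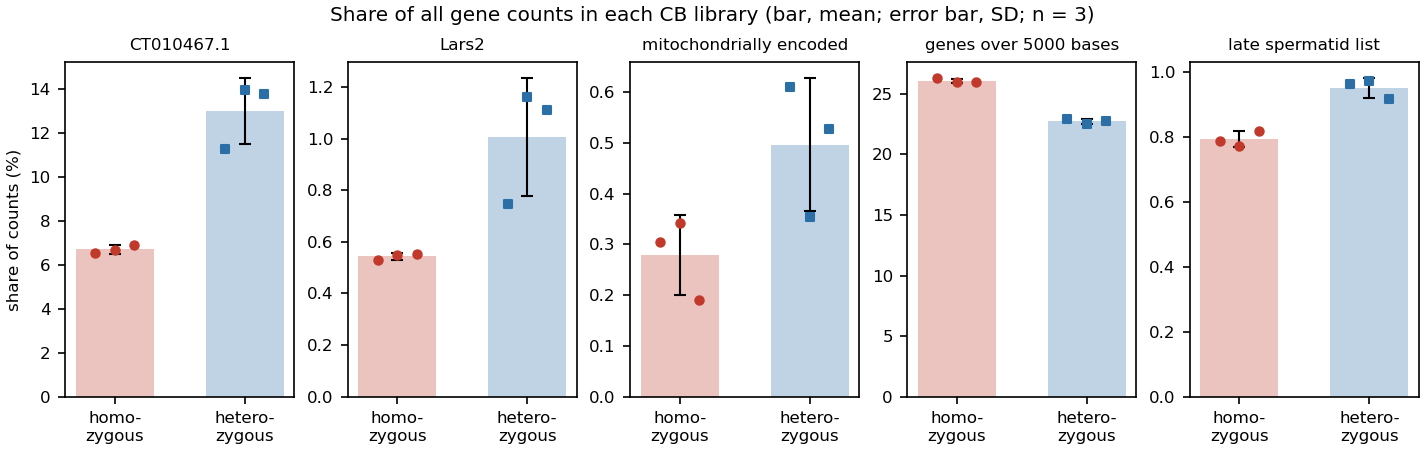
Percent of all gene counts taken by 5 classes of RNA in each CB library; bars are means, error bars SD (n = 3 each), circles homozygous and squares heterozygous libraries. The groups are separated in every panel: CT010467.1, Lars2, mitochondrially encoded RNA and the late spermatid list take less, and genes over 5000 bases more, in homozygous CB RNA.

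Messages of late spermatids, those of sperm chromatin packing and of the sperm tail, were lower in homozygous CB RNA. Of 36 genes of the list tested, 7 fell and none rose, against 0.559% lower over all genes. Of the 36, 32 had negative estimates and 25 did not overlap between groups, against 21.2% over all genes. The median was -0.34. Prm1, one of the protamines that replace histones in sperm, had 88.5, 87.0 and 91.2 CPM in homozygous CB RNA and 313.8, 174.7 and 153.2 CPM in heterozygous CB RNA (-1.27 ± 0.23, adjusted p = 0.0216). Odf1 of the outer dense fibres had 231.3, 231.7 and 245.5 CPM in homozygous CB RNA against 308.8, 489.1 and 462.5 CPM in heterozygous CB RNA (-0.83 ± 0.16, adjusted p = 0.0297). The heterozygous libraries disagreed with each other here: library 1 was highest for Prm1 and lowest for Odf1. Tssk6, a kinase of spermatids, was more even, at 66.0, 65.2 and 70.1 CPM in homozygous CB RNA and 111.0, 117.5 and 104.3 CPM in heterozygous CB RNA (-0.73 ± 0.10, adjusted p = 0.00666). Oaz3, the germ-cell ornithine decarboxylase antizyme (-0.84), Hspb9, a small heat shock protein (-0.72), Spata18 (-0.58) and Gapdhs, the sperm form of glyceraldehyde-3-phosphate dehydrogenase (-0.49), made up the rest. With the length trend removed 5 of the 7 stayed called, and Oaz3 (adjusted p = 0.0689) and Gapdhs (adjusted p = 0.0788) did not; the list is short, with a median of 1277 bases.

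Not all messages of that kind passed the test. Prm2, the other protamine, had 363.8, 359.4 and 374.1 CPM in homozygous CB RNA and 687.8, 501.0 and 449.7 CPM in heterozygous CB RNA (-0.58 ± 0.15, adjusted p = 0.0949). Smcp, a protein of the sperm mitochondrial capsule, had 302.7, 296.2 and 285.2 CPM in homozygous CB RNA against 351.6, 659.0 and 653.2 CPM in heterozygous CB RNA (-0.91 ± 0.20, adjusted p = 0.0557). Tnp1, a transition protein, had an estimate of -0.66 (adjusted p = 0.171). These 3 were named after their values were seen. Their groups did not overlap, as in 25 of the 36 genes of the list and in 21.2% of all genes. Without heterozygous library 1, 18 of the 36 fell (3.96% lower over all genes), and without any other library 0 to 3 did. In length-normalised units the list summed to 15960 to 17550 TPM in homozygous CB RNA and 19940 to 20730 TPM in heterozygous CB RNA. As the labels leave CB unexplained, numbers of cells of a stage, RNA per cell and what CB libraries sample cannot be told apart. Among acrosome genes, Crisp2 (-0.97) and Spaca1 (-0.49) fell and Tex101 rose, of 36 tested, against 0.559% lower and 1.16% higher over all genes. Their median was -0.17. Without heterozygous library 1, 3 rose and 9 fell, against 7.09% higher and 3.96% lower over all genes. Flagellar genes had a median of 0.16 over 40 genes, with 1 rise (2.5%, against 1.16% higher over all genes). It was in Drc1 (0.57), a part of the nexin-dynein regulatory complex. Of these 40, 11 rose and 2 fell without heterozygous library 1, against 7.09% higher and 3.96% lower over all genes.

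Promoters of genes named above are shown to set called late spermatid genes beside a gene that rose. They are the 250 bases before the RefSeq start, 5′ to 3′ on the gene's strand, in GRCm38.p6: Prm1 at chr16:10796824-10797073 (minus strand), Gapdhs at chr7:30739408-30739657 (minus strand, the first of 2 entries), Tssk6 at chr8:69901934-69902183 (plus strand) and Slc41a1 at chr1:131827762-131828011 (plus strand). Capitals mark TGACNTCA on either strand, a near-palindrome related to the site of cyclic AMP-responsive factors, of which the testis form of Crem is known for its role in spermatids.
Prm1: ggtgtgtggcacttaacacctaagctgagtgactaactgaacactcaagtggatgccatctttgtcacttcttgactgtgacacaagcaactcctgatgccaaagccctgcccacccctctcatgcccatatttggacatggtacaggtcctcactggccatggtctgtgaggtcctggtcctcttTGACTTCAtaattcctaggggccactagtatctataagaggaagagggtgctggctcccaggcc
Gapdhs: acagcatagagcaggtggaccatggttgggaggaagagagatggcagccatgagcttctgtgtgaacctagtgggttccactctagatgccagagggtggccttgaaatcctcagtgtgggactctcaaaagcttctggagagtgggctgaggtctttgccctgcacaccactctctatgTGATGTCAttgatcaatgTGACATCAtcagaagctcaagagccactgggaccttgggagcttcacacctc
Tssk6: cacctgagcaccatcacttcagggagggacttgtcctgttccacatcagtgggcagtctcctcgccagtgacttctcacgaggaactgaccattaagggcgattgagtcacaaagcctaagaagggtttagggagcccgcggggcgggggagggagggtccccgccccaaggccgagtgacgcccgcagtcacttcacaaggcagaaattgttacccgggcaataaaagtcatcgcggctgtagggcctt
Slc41a1: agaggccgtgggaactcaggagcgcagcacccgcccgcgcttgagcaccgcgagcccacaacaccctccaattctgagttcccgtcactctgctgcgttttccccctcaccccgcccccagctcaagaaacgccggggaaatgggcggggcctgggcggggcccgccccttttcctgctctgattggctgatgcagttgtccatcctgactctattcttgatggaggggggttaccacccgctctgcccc
The Prm1 copy reads TGACTTCA and lies 64 to 57 bases before the start. Gapdhs has a pair of copies, TGATGTCA at 70 to 63 bases and TGACATCA at 52 to 45 bases before the start. Tssk6 and Slc41a1 have none in this window. By gene, the motif stood in 18 of 157 promoters of called higher genes (11.5%) and in 17 of 70 promoters of called lower genes (24.3%), against 9.46% of 12839 genes tested and 8.55% of 27025 genes with a promoter in the table. The full palindrome TGACGTCA, a subset of the same motif, stood in 3.18% of higher, 0 of 70 lower and 2.80% of tested genes, and its arm TGACG, which overlaps both, in 31.2%, 17.1% and 27.4%. TATAAA was found in 6.37%, 12.9% and 8.90%, and GTTGCC, an arm of the X-box, in 8.92%, 11.4% and 13.2% of higher, lower and tested genes. All 5 motifs were searched on both strands and chosen with results known, so these shares are a description without a test.

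Among genes of RNA decay and translation control, 3 of 59 tested rose and none fell, against 1.16% higher over all genes, and all 3 belong to miRNA silencing. Tnrc6b, a GW182 scaffold that links Argonaute to deadenylases, had 311.8, 305.8 and 341.0 CPM in homozygous CB RNA and 188.3, 168.5 and 156.2 CPM in heterozygous CB RNA (0.90 ± 0.11, adjusted p = 0.00372). Ago2, the Argonaute protein with slicer activity, had 190.9, 180.8 and 191.5 CPM in homozygous CB RNA against 107.4, 125.7 and 127.1 CPM in heterozygous CB RNA (0.64 ± 0.10, adjusted p = 0.0130). Ago1 had 38.0, 37.9 and 43.3 CPM in homozygous CB RNA and 26.6, 26.7 and 26.0 CPM in heterozygous CB RNA (0.59 ± 0.11, adjusted p = 0.0247). The homozygous libraries lay above the heterozygous ones throughout for these genes, but the groups were separated for every called gene. Their relatives did not pass the test, with estimates of 0.08 for Ago3, 0.19 for Ago4, 0.12 for Tnrc6a, 0.24 for Tnrc6c and 0.02 for Dicer1, the enzyme that cuts miRNA precursors. Whether the members differ from each other in their changes was not tested. Over the list the median was 0.09. Tnrc6b was called without each library in turn, 17 members rose and none fell without heterozygous library 1 (7.09% higher over all genes), and 1 or 2 rose without any other library. After a length trend was removed, Tnrc6b and Ago2 remained called.

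Germ granule and piRNA pathway genes centred on no change, with a median of 0.01 over 47 tested. Of the 47, 2 were called, both higher (4.3%, against 1.16% higher over all genes). They were Spocd1 (0.71 ± 0.14, adjusted p = 0.0329), needed for piRNA-directed DNA methylation, and Henmt1 (0.52 ± 0.11, adjusted p = 0.0389), which methylates the 3′ ends of piRNAs. Spocd1 had 11.7, 12.4 and 13.6 CPM in homozygous CB RNA and 7.95, 7.72 and 7.29 CPM in heterozygous CB RNA. The PIWI gene Piwil1 had 723.1, 696.5 and 736.7 CPM in homozygous CB RNA and 282.6, 796.2 and 787.6 CPM in heterozygous CB RNA. Piwil2 had 302.9, 289.9 and 320.3 CPM in homozygous CB RNA against 147.4, 294.5 and 279.3 CPM in heterozygous CB RNA. Heterozygous library 1 alone was low for both, as it was for the Tudor-domain gene Tdrd1, at 414.3, 414.3 and 423.4 CPM in homozygous CB RNA and 184.6, 369.7 and 354.4 CPM in heterozygous CB RNA. Tdrd6, the most abundant Tudor gene named here, had 2999, 2852 and 3203 CPM in homozygous CB RNA and 3010, 2864 and 2742 CPM in heterozygous CB RNA. None of these 4 passed the test, at adjusted p of 0.358 to 0.843. Both calls of the list were lost without at least 1 library. Without heterozygous library 1, 4 members rose and 7 fell, against 7.09% higher and 3.96% lower over all genes.

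Genes that host piRNA clusters, taken from the authors' deposited cluster names, had 13 rises and no falls among 105 tested, against 1.16% higher in the background. In 46 of the 105 the groups did not overlap, against 21.2% over all genes, and the median was 0.13. Split by the class in the cluster name, 8 of 24 hybrid hosts (33.3%), 1 of 5 pachytene hosts and 4 of 76 prepachytene hosts rose. Eif4ebp2, a repressor of cap-dependent translation and a hybrid host, had 141.4, 137.2 and 149.2 CPM in homozygous CB RNA and 74.7, 71.8 and 69.5 CPM in heterozygous CB RNA (0.99 ± 0.09, adjusted p = 0.00183). Its call held without each library in turn. Tacc1, a centrosome-associated hybrid host, had 398.3, 384.9 and 403.2 CPM in homozygous CB RNA against 270.9, 271.1 and 262.6 CPM in heterozygous CB RNA (0.56 ± 0.09, adjusted p = 0.0163). Tktl2 (0.77), Exoc8 (0.55), a subunit of the exocyst, Tbl2 (0.59), Mgll (0.58), the monoacylglycerol lipase, Ddx19b (0.50), an RNA helicase, and Kctd7 completed the hybrid hosts that rose. Arhgap20 (0.63) was the pachytene host. Map3k9 (0.92) was among the prepachytene hosts, at 57.9, 59.2 and 62.6 CPM in homozygous CB RNA and 40.6, 27.8 and 26.6 CPM in heterozygous CB RNA.

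The share of hosts that rose depended on the libraries used. Without heterozygous library 1, 31 of the 105 rose and 6 fell, against 7.09% higher and 3.96% lower over all genes. In that fit 14 of the 24 hybrid hosts rose, and prepachytene hosts had 14 rises and 6 falls. Without any other single library 1 or 2 of the 105 rose. Hosts are long, with a median of 4598 bases for the list and 3747 bases for hybrid hosts, against 2173 bases for all genes tested. After the length trend was removed, 9 of the 105 and 6 of the hybrid hosts were called higher and none lower. DESeq2 called 18 and 9. Gene-level counts do not separate precursor transcripts from mRNA of the host.

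Messages of other classes gave few calls at the gene level, against 1.72% of all genes tested. Cytoplasmic ribosomal protein genes had a median of -0.07 over 82 tested, with Rps3 higher (0.76) and Rpl41 lower (-0.67). Both can share reads with processed pseudogenes. Clustered histone genes had a median of -0.29 over 50 tested with none called by edgeR (5 at an unadjusted p under 0.05, 0 by DESeq2, and 15 lower without heterozygous library 1). Small nuclear, nucleolar and cytoplasmic structural RNAs were mostly too low to test, with 30 of 1964 tested and 1 called, Rmrp (-0.75), the RNA of RNase MRP. Their median of -0.56 became -0.006 without heterozygous library 1. Of 40 meiotic prophase genes, Tex14, required for intercellular bridges of germ cells, rose (0.58 ± 0.09, adjusted p = 0.0130) and Syce2 of the synaptonemal complex fell (-0.60 ± 0.12, adjusted p = 0.0310). Of 27 regulators of the stages after meiosis none was called by edgeR (2 at an unadjusted p under 0.05, 0 by DESeq2, and 3 higher and 1 lower without heterozygous library 1). Clustered protocadherins, adhesion molecules best known from neurons, had a median of -0.47 over 45 tested, with 38 negative estimates and 23 genes whose groups did not overlap (21.2% over all genes). Pcdha4 (-1.21), Pcdha5 (-1.30) and Pcdha6 (-1.19) fell, against 0.559% lower over all genes, and none rose. Without heterozygous library 1, 10 fell and 1 rose (3.96% lower and 7.09% higher over all genes), and without any other library 0 or 1 fell. The 3 called genes share their constant exons, so their counts are uncertain and not independent. Of 29 genes of stress and apoptosis Gsdmd rose, and of 12 genes of the cornified envelope and desmosomes Evpl did.

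Markers of other testis cells gave few calls, 1 each among immune and among peritubular and vascular markers. Over all genes tested 1.16% were called higher and 0.559% lower. Leydig cell markers, 12 of 13 tested, had no call by edgeR (2 at an unadjusted p under 0.05, 1 by DESeq2, and 1 higher without heterozygous library 1), but all 12 estimates were positive and their summed level was 635.6 to 695.9 TPM in homozygous CB RNA and 250.4 to 495.6 TPM in heterozygous CB RNA. Immune markers, 12 of 16 tested, summed to 44.6 to 48.5 TPM in homozygous CB RNA and 24.1 to 41.2 TPM in heterozygous CB RNA, with Cd74 called. Sertoli markers, 17 of 21 tested with none called by edgeR (3 at an unadjusted p under 0.05, 0 by DESeq2, and 4 lower without heterozygous library 1), summed to 290.9 to 306.4 TPM in homozygous CB RNA, within the 232.4 to 364.3 TPM of heterozygous CB RNA. Heterozygous library 1 had the lowest sum for each of these lists. Peritubular and vascular markers, 13 of 14 tested, summed to 90.7 to 105.2 TPM in homozygous and 108.8 to 132.3 TPM in heterozygous CB RNA, and Actg2, a smooth muscle actin, fell (-0.91). Spermatogonial markers summed to 586.7 to 626.5 TPM in homozygous and 482.6 to 573.0 TPM in heterozygous CB RNA, with none of 14 called by edgeR or DESeq2 (0 at an unadjusted p under 0.05, and 1 higher and 2 lower without heterozygous library 1). Erythroid markers, 4 of 7 tested with none called by edgeR or DESeq2 (0 at an unadjusted p under 0.05, and 1 lower without heterozygous library 1), summed to 19.3 to 23.1 TPM in homozygous and 9.33 to 34.7 TPM in heterozygous CB RNA. No marker of these 6 lists was at 0 in all libraries. The part of these cells in the gene-level results was not tested.

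**Figure D3:**
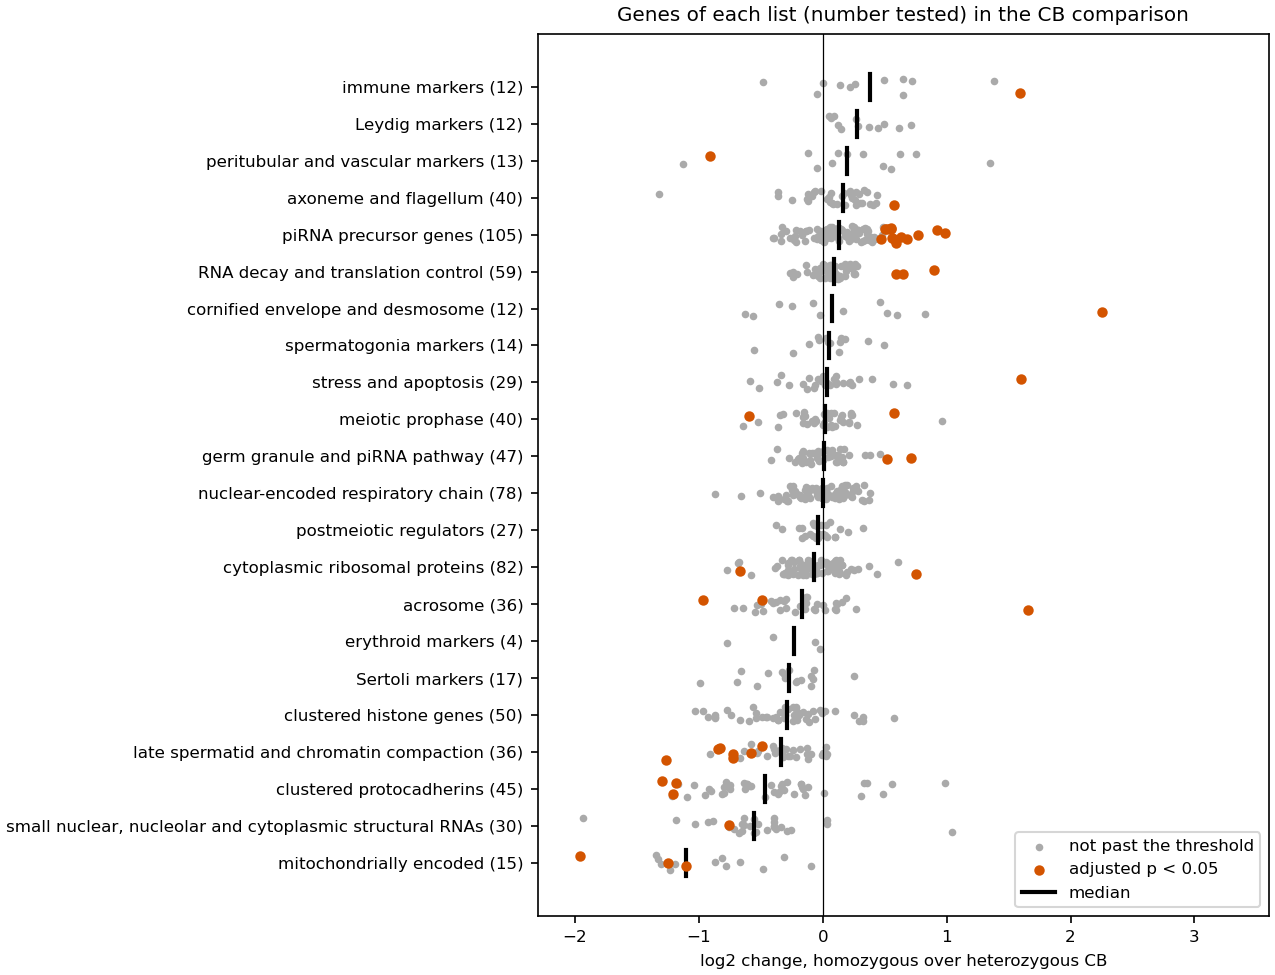
Log2 change, homozygous over heterozygous CB RNA, of every tested gene of 22 gene lists (number tested in parentheses), ordered by median; orange points passed adjusted p under 0.05 in edgeR's quasi-likelihood test, grey ones did not, and black bars are medians. Mitochondrially encoded genes centre at -1.10 and late spermatid genes at -0.34, while germ granule genes centre at 0.01 and the called piRNA precursor genes all lie to the right of zero.

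Change was related to transcript length. Genes over 5000 bases took 26.3%, 26.0% and 26.0% of counts in homozygous CB RNA and 22.9%, 22.6% and 22.8% in heterozygous CB RNA. By length bin, the share of genes called higher was 0.305% under 500 bases, 2.12% in the bin up to 5000 bases, the second longest, and 3.27% over 5000 bases, and the share called lower was 2.13%, 0.236% and 0.273% in the same bins. The called higher genes had a median length of 3433 bases and the called lower genes 1452 bases. Across the 19335 genes, which are not independent replicates, Spearman's rho between length and log2 change was 0.170, and 0.120 without heterozygous library 1. With a smooth length trend removed, 183 genes were called higher (0.946%) and 91 lower (0.471%), and 259 of the 332 remained. The part of RNA integrity in this trend was not tested. Chromosome 13, which carries Ddx4, had 5 called genes of 672 tested (0.744%), against 1.72% over all genes. The nearest to Ddx4 was Iqgap2, 17.0 Mb away.

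At the isoform level, 3 of 41748 isoforms tested were called (0.00719%), and 3349 had an unadjusted p under 0.05. DESeq2 called 658. Those called were the main isoforms of Evpl (2.26, adjusted p = 0.0117) and Slc41a1 (1.71, adjusted p = 0.0180) and ENSMUST00000068526 of M5C1000I18Rik (6.54 ± 0.35, adjusted p = 0.0117). The number called was 96 without heterozygous library 1 and 0 or 1 without any other library. M5C1000I18Rik is a long noncoding RNA gene on chromosome 9, which has 3 listed isoforms of 1497, 1496 and 1414 bases. ENSMUST00000068526 had 1036, 1022 and 1277 counts in homozygous CB RNA and 17, 6 and 8 counts in heterozygous CB RNA. ENSMUST00000196844 had 161, 127 and 0 counts in homozygous CB RNA and 742, 753 and 712 counts in heterozygous CB RNA. The fall of ENSMUST00000196844 was not called (edgeR adjusted p = 0.533). The estimated counts were thus assigned mostly to different isoforms in the groups. ENSMUST00000068526 took 86.2%, 88.6% and 99.6% of the gene's counts in homozygous CB RNA and 2.22%, 0.786% and 1.11% in heterozygous CB RNA.

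Over the whole gene, M5C1000I18Rik had 72.9, 72.8 and 77.9 CPM in homozygous CB RNA and 54.8, 53.1 and 50.5 CPM in heterozygous CB RNA, a smaller change of 0.50 (adjusted p = 0.0323). The isoforms concerned differ by 1 base in length, and how the quantifier divided reads between them was not tested. Its usage test (adjusted p = 0.0376) passed in 1 of the 6 fits that left out a library. In round spermatids all of its counts were on ENSMUST00000196844, with 48 and 43 counts in homozygous and 46 and 31 counts in heterozygous libraries, and ENSMUST00000068526 was listed at 0 in all 4.

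**Figure D4:**
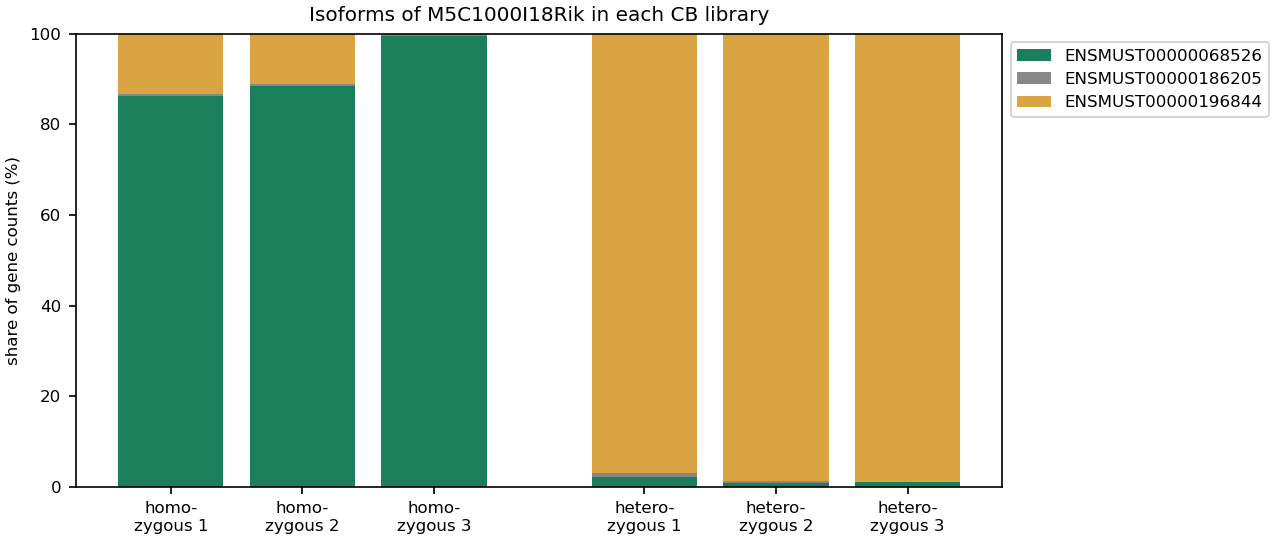
Percent of the gene counts of M5C1000I18Rik on each of its 3 listed isoforms in each CB library, homozygous libraries on the left and heterozygous on the right, as stacked bars. ENSMUST00000068526 (green) takes 86.2% to 99.6% in homozygous libraries and 0.786% to 2.22% in heterozygous ones, where ENSMUST00000196844 (yellow) takes nearly all.

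Isoform usage, the division of a gene's counts among its isoforms, was called changed in 57 of 9060 genes (0.629%; edgeR, Simes p per gene, Benjamini-Hochberg adjusted). In 56 of the 57 the groups did not overlap in the share of the isoform with the smallest p. This separation is no added support, since the same test picked the isoform, and the share over all genes tested is not given. That isoform was listed at 0 in every homozygous library in 18 genes and in every heterozygous library in 27, and had counts in both groups in 12. Of the 57, 2 were also called at the gene level, where 1.72% of all genes were, and 24 were called without each library in turn. Fgd1, an exchange factor for Cdc42, had its isoform at 57.8% ± 5.11 of counts in homozygous and 2.56% ± 2.22 in heterozygous CB RNA (SD, n = 3 each), on 204 and 141 gene counts in all. Prx, periaxin of myelinating Schwann cells, had 43.6% ± 8.48 in homozygous CB RNA and 0 of 175 counts in heterozygous CB RNA, which allows a share of up to 1.71%. In the other direction Tyw3, an enzyme of tRNA wybutosine synthesis, had 0 of 161 counts in homozygous CB RNA, which allows up to 1.86%, against 35.2% ± 8.15 in heterozygous CB RNA. Prx and Tyw3 were called without each library in turn.

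Dnpep, an aspartyl aminopeptidase with 1780 and 1697 gene counts, was named after its values were seen. It had an isoform at 23.2%, 29.0% and 24.9% in homozygous CB RNA and at 0 in heterozygous CB RNA, which allows up to 0.177% (adjusted p = 1.0e-07). The others of the 8 with the largest shifts were Pex26, a peroxisome biogenesis gene (0.321% in homozygous and 41.6% ± 12.9 in heterozygous CB RNA), Cbfa2t3 (39.4% ± 10.7 in homozygous CB RNA and 0 in heterozygous CB RNA, limit 3.0%), Klc4, a kinesin light chain (0 in homozygous CB RNA, limit 0.298%, and 35.1% ± 20.9 in heterozygous CB RNA) and Aebp1 (30.6% ± 12.1 in homozygous and 0.490% in heterozygous CB RNA). Cbfa2t3 was not called in any fit that left out a library. Limits cover counting error only, and a zero may also be a failed estimate of the quantifier.

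The same isoforms were then looked up in round spermatids, a comparison added after the CB usage results were seen. Of 8019 genes tested for usage there, 200 were called (2.49%). Of the 57 CB genes 39 were tested, and 4 were called. Bend4 and Osbp2, an oxysterol-binding protein, shifted in the same direction in both kinds of library. Osbp2's isoform took 8.53%, 9.22% and 3.83% of counts in homozygous CB RNA and 17.7%, 29.3% and 23.5% in heterozygous CB RNA, and 33.6% and 35.5% in homozygous against 42.8% and 43.5% in heterozygous spermatids. Fgd1 shifted the other way, at 0 in both homozygous spermatid libraries against 54.8% and 40.0% in the heterozygous ones, as did Abr. Of the 49 CB genes with at least 20 counts in each spermatid library, the share moved the same way in 21, with no overlap between groups in 8, and the groups were separated in the opposite direction in 4. In 13 the shares were equal. With 2 libraries a group, shares can also separate without an effect of genotype. Such counts over all genes tested are not given, so these show nothing particular to the CB genes.

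The gene-level changes of CB RNA recurred in round spermatids in most cases. Of the 224 genes higher in homozygous CB RNA, 207 (92.4%) had a higher estimate in homozygous spermatids too, against 39.2% of the 19320 genes tested in both, and 147 (65.6%) were called there, against 4.77% of genes tested. Of 105 lower genes tested in both, 97 (92.4%) had a lower estimate in spermatids, against 57.6%, and 46 (43.8%) were called, against 5.69%. Called genes were more abundant than the rest, with a median of 36.7 CPM for higher, 31.0 CPM for lower and 6.80 CPM for all tested genes, so these shares are not from genes of like level. The libraries compared were different ones, and kit and input differ between the kinds. However, spermatid calls came from a joint fit of 10 libraries, whose spread was estimated over the CB libraries too. The shares called are therefore not independent of the CB calls. Evpl, Slc41a1 and Tnrc6b, which rose in CB RNA, had spermatid estimates of 2.60, 2.44 and 1.25.

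The effect of genotype differed between CB RNA and round spermatids in 269 of 21706 genes tested (1.24%), of which 159 had the more positive effect in CB RNA and 110 the more negative. With median-ratio scaling 187 were called, 77 positive and 110 negative. Of the 329 CB calls tested in both, 46 differed. Some called CB genes moved the same way in both. Tex101 rose by 1.63 in CB RNA and 4.17 in spermatids in the joint fit, with 550.1 and 512.4 CPM in homozygous against 30.0 and 29.2 CPM in heterozygous spermatids. BC049730 rose by 1.24 in CB RNA and 4.07 in spermatids, with 184.8 and 165.6 CPM in homozygous against 9.93 and 10.9 CPM in heterozygous spermatids. Other genes had estimates of opposite sign. Hspb9 had -0.74 in CB RNA and 0.45 in spermatids, where it had 1388 and 1234 CPM in homozygous and 946.6 and 971.9 CPM in heterozygous libraries. Ccnd2, cyclin D2, had 0.72 in CB RNA and -1.95 in spermatids. CT010467.1 had -1.001 in CB RNA and 0.12 in spermatids, where it had 3122 and 2739 CPM in homozygous and 2961 and 2450 CPM in heterozygous libraries. The difference was called for each of these genes.

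**Figure D5:**
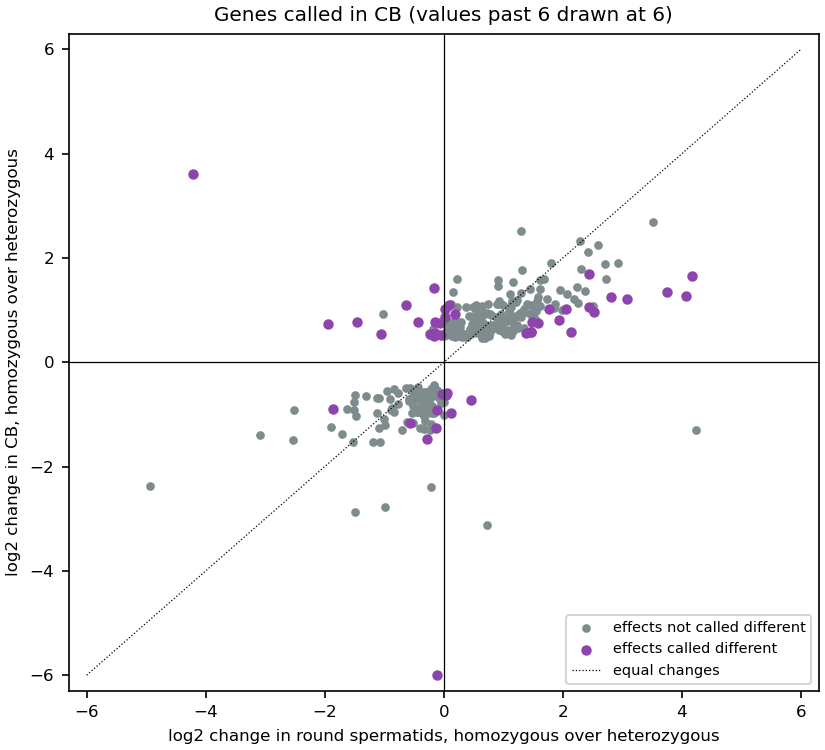
Log2 change, homozygous over heterozygous, of genes called in CB RNA: the change in round spermatids on the horizontal axis and in CB RNA on the vertical axis, with purple points for the 46 genes whose effects were called different and grey for the others; the dotted line marks equal changes. Most points have both changes above zero or both below. Several purple points lie right of the line, where the change was more positive in spermatids than in CB RNA.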

How the data were processed

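RNA of 6 CB libraries was analysed, with 4 round spermatid libraries for context. For each library the authors deposited a table of expected counts, TPM and FPKM per gene and per isoform, per the file headers. Expected counts, which the authors deposited as estimates that need not be whole, were rounded; deposited TPM, normalised for length and library size by the authors, gave summed levels only. The submitters' processing notes name Trim Galore and mm10; the quantifier, the aligner, their versions and any use of strand in counting are not given in the sources used. Tables held 55401 genes and 142604 isoforms; 38559 genes matched RefSeq by symbol, and sequences are RefSeq's for GRCm38.p6. Gene names of piRNA hosts come from the deposited count tables of piRNA clusters, of which 105 of 114 names matched.

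Counts were tested with edgeR 4.0.16 in R 4.3.3 (quasi-likelihood F test, TMM factors, filterByExpr, Benjamini-Hochberg adjustment over all features, threshold 0.05), in only the 6 CB libraries. DESeq2 1.42.0 was an alternative. Isoform usage was tested by edgeR's diffSpliceDGE, and unlike effects in CB RNA and spermatids by an interaction contrast over 10 libraries. Errors of log2 changes are standard errors derived from the test statistic. The members and lists were chosen with earlier results of these data known. Named genes are Ddx4, the 15 largest called changes each way with separated groups and at least 1 CPM in the higher group, up to 6 called members per list, 8 usage genes and 5 interaction genes each way; others were named after their values were seen. Scripts were tested on simulated counts. A chi-square check for copied libraries, over genes with at least 20 counts, gave 2.76 or more per degree of freedom for each pair within a group, so none was a copy within counting noise. Limits for counts of 0 cover counting error only, since these reads carry no molecular identifiers.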

Additional observations from a re-analysis of the deposited data

Results flagged for a closer look

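The results here are those whose effect of genotype (homozygous over heterozygous, log2) differed between CB RNA and round spermatids, past adjusted p 0.05 for the difference itself in edgeR's interaction contrast over 10 libraries. Each value is the CB effect minus the spermatid effect. The kinds of library differ in kit and input, and the effects of these and of the cells used cannot be told apart.

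The largest positive differences were 7.82 for Igha, 6.25 for Pcdhga11, 5.77 for Gm47652, 5.68 for Gm13169 and 5.52 for Gm10797. Pcdhga11, Gm47652, Gm13169 and Gm10797 had no count in both homozygous spermatid libraries, so these fitted values depend on the prior count and are no bounds; their CB estimates were 0.34, -0.14, -0.43 and -0.66. The largest negative differences were -8.53 for Gm20862, which had no count in heterozygous spermatids, -7.03 for Gm20521, which had none in homozygous CB RNA, -5.54 for Ces2h, -3.86 for Cnnm1 and -3.14 for Prune2. Cnnm1 had 1.67, 1.15 and 1.65 CPM in homozygous and 3.73, 3.22 and 3.02 CPM in heterozygous CB RNA, and 0.547 and 0.386 CPM in homozygous against 0.0591 and 0.0721 CPM in heterozygous spermatids.

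Ddx4 differed by 1.59, with 128.7 and 136.3 CPM in homozygous against 457.1 and 443.5 CPM in heterozygous spermatids. Genes that rose in CB RNA and had a larger positive estimate in spermatids were Tex101 (-2.53), BC049730 (-2.83), Lrrc61 (-1.88), Mgll (-1.58), Ago1 (-0.91), Rps3 (-0.85), Slc41a1 (-0.76) and Stau1, a double-stranded RNA-binding protein (-0.73). Lrrc61 had 77.4 and 83.0 CPM in homozygous against 10.4 and 8.51 CPM in heterozygous spermatids. Mgll had 60.5 and 61.2 CPM in homozygous against 15.5 and 11.98 CPM in heterozygous spermatids. Genes that fell in CB RNA with a smaller or no fall in spermatids were Gm614 (-1.20), Hspb9 (-1.20), CT010467.1 (-1.12) and Syce2 (-0.68). The piRNA hosts Tacc1 (0.68) and Exoc8 (0.76) and the cyclin Ccnd2 (2.67) rose in CB RNA and had negative estimates in spermatids. Of all these genes, Ddx4, Tex101, Hspb9, BC049730, Lrrc61 and Mgll were called without each of the 10 libraries in turn.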

How the results depend on the processing

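No named gene that was called changed sign under the alternatives run. Some that were not called did: without heterozygous library 1 Piwil1 was at -0.15, Dicer1 at -0.20 and mt-Co1 at 0.15, and with the length trend removed Tdrd6 was at -0.006 and Ago3 at -0.01. Genes called, 332, were 882 without the filter on low counts, 565 with DESeq2 and 745 with spermatid libraries in the fit; leaving out a library gave 51 to 2213. Isoforms called, 3, were 42 without the filter and 658 with DESeq2; leaving out a library gave 0 to 96. Genes with changed usage, 57, were 87 without the filter and 86 to 113 without a library. Unlike effects, 269, were 679 without the filter and 31 to 2135 without a library. As a share of TPM, mitochondrially encoded RNA differed by -0.42 points and transcripts under 1000 bases by -1.31, against -0.22 and -0.33 as a share of counts. Of 77 named calls 14 to 77 held without 1 library and 65 with the length trend removed; the causes were not tested. Deviations of same-numbered libraries from their group means correlated at r = -0.013, -0.184 and -0.116, and those of other pairs at -0.085 to 0.223. With means of 3 libraries a group, these values cannot settle whether the numbers pair samples. With a replicate block 163 genes, 0 isoforms (2114 at an unadjusted p under 0.05) and 28 usage genes were called. No blocked fit of unlike effects was made. Groups of 3 libraries and 14.2 to 16.5 M counts limit calls for genes of low level.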
